A study of Mus musculus with 6 samples.

Results

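The 6 genes described here are Pou5f1 and Sox2, which encode the transcription factors Oct4 and Sox2, and Sall4, Utf1, Fgf4 and Fbxo15, known as direct targets of that pair in mouse embryonic stem (ES) cells. They were taken as all probe sets whose platform gene symbol is exactly 1 of these names, which gave 12 of the 45037 probe sets tested: 1 each for Pou5f1, Sox2 and Fbxo15, 2 for Sall4, 3 for Utf1 and 4 for Fgf4. No probe set shared with another gene carried any of these names. Total RNA of 6 mouse ES cell samples was hybridised to 1 Affymetrix array each. A group of 3 came from the Dppa4 knockout ES cell line CI#243.12 and a group of 3 from the parental line CI#84.2, which is hemizygous for Dppa4, so the controls also carry only 1 functional copy of that gene. Each group is a single cell line, and both lines grew on mouse embryonic fibroblast feeder cells. The comparison asks whether loss of Dppa4, a gene of pluripotent cells whose product binds chromatin, alters the expression state of ES cells.

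Oct4 is a POU domain protein and Sox2 an HMG box protein. They bind next to each other on composite DNA sites made of a Sox motif and an octamer motif, and together they activate genes of the pluripotent state, their own genes included. Sall4 is a zinc finger transcription factor of the spalt family that also takes part in this circuit. Utf1 is a chromatin-associated protein of undifferentiated cells, Fgf4 a secreted growth factor that acts through FGF receptors and the ERK kinases, and Fbxo15 an F-box protein that is a marker of ES cells but is not needed for their self-renewal.

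The bases just upstream of Sox2 and Utf1 are shown because these genes stand for the regulators and for the targets, and because Sox2 held the only octamer-like match among the 4 members with a promoter entry (Pou5f1, Sox2, Utf1 and Fgf4). Both sequences run 5′ to 3′ over the 250 bases before the RefSeq start in GRCm38.p6, at chr3:34649745-34649994 and chr7:139943606-139943855, plus strand. Capitals mark the first 7 letters of the octamer (ATGCAAA), the GC box (GGGCGG) and the CCAAT box (CCAAT), each on either strand.
Sox2: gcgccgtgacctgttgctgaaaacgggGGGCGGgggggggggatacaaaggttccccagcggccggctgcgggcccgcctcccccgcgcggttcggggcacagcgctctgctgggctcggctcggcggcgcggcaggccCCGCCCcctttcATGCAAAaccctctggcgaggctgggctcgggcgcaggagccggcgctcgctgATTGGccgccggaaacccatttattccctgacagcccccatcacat
Utf1: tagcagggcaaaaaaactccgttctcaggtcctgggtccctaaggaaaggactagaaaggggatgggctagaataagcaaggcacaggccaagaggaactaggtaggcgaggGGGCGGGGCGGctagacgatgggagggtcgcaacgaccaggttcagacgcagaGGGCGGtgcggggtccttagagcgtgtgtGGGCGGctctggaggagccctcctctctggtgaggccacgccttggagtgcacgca
The Sox2 window held 1 match to ATGCAAA, 2 GC boxes and 1 CCAAT box. The Utf1 window held 4 GC boxes, of which 2 overlap by a base, and none of the other motifs. The window of Pou5f1 held 1 GC box and 1 CCAAT box, and that of Fgf4 held 2 GC boxes and 1 CCAAT box. Among 32851 promoter windows of the same length, 4.12% held ATGCAAA, 32.7% the GC box and 33.8% the CCAAT box. The full octamer ATGCAAAT, which contains the 7 letters, occurred in 1.6% of windows and the Sox core CATTGT in 10.7%, and neither lay in the windows of these 4 genes. The well-known Oct4 and Sox2 binding elements of Sox2, Utf1 and Fgf4 lie in enhancers outside such windows.

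Values are log2 expression values on the RMA scale, which the authors computed. A probe set was called when the adjusted p of limma's two-sided moderated test, knockout against parental, was under 0.05 after Benjamini-Hochberg adjustment over all 45037 probe sets. In all, 181 probe sets were called, 150 lower and 31 higher in knockout cells, and 70 to 112 when any 1 of the 6 arrays was left out. Dppa4 itself (1429597_at) read 10.30, 10.35 and 10.45 in parental and 8.68, 8.84 and 8.68 in knockout samples, a change of -1.63 (SE 0.08, adjusted p = 0.000112, limma). The knockout signal was thus 32.2% of the parental signal and, with a mean of 8.73, above the background level of 3.78, the 95th percentile of olfactory and vomeronasal receptor probe sets. Whether its probes fall inside the deleted region is not stated in the sources used here. Correlations between arrays, taken over probe sets, ran from 0.994 to 0.997. Of 9 measured ES cell markers outside the 6 genes, 9 lay above the background level. All 15 feeder fibroblast markers lay above it as well. Of the primitive endoderm markers 7 of 8 lay above it, and their mean ran from 5.21 to 5.50 over parental and 5.35 to 5.49 over knockout arrays. Gata4 and Gata6 had parental means of 3.47 and 4.43, while Pdgfra and Dab2 had 9.77 and 7.76. Of the trophoblast markers 5 of 7 lay above it (means 4.65 to 4.77 and 4.59 to 4.73), with Elf5 and Cdx2 at 3.26 and 4.18 and Tfap2c at 7.75. Tfap2c was lower on every knockout array, with a change of -0.36 (adjusted p = 0.122, limma), the largest among the trophoblast markers. Of the neural markers 3 of 4 lay above the background level (means 4.87 to 5.11 and 4.89 to 5.18), with Sox1 at 3.77 and Nes at 6.77. Nothing in the labels says that the 3 samples of a line came from separate cultures, so p-values reflect only how far these samples scatter, part or all of which can be technical.

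Transcripts of both regulators stayed at a high level in the knockout line, and none of the 12 probe sets passed the test. Of the table as a whole, 0.402% of probe sets passed it. At an unadjusted p under 0.05, 3 of the 12 were lower in knockout cells and 0 were higher, where 5.19% of all probe sets were lower and 4.3% higher (limma). These 3 were the 2 probe sets of Sall4 and that of Fbxo15. Their 95% intervals of the change excluded 0, which is the same result, since interval and p come from the same fit. The median change of the 12 was -0.065, against 0.0 over all probe sets. In bulk RNA, fewer ES cells and less RNA per ES cell cannot be told apart.

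**Figure D1:**
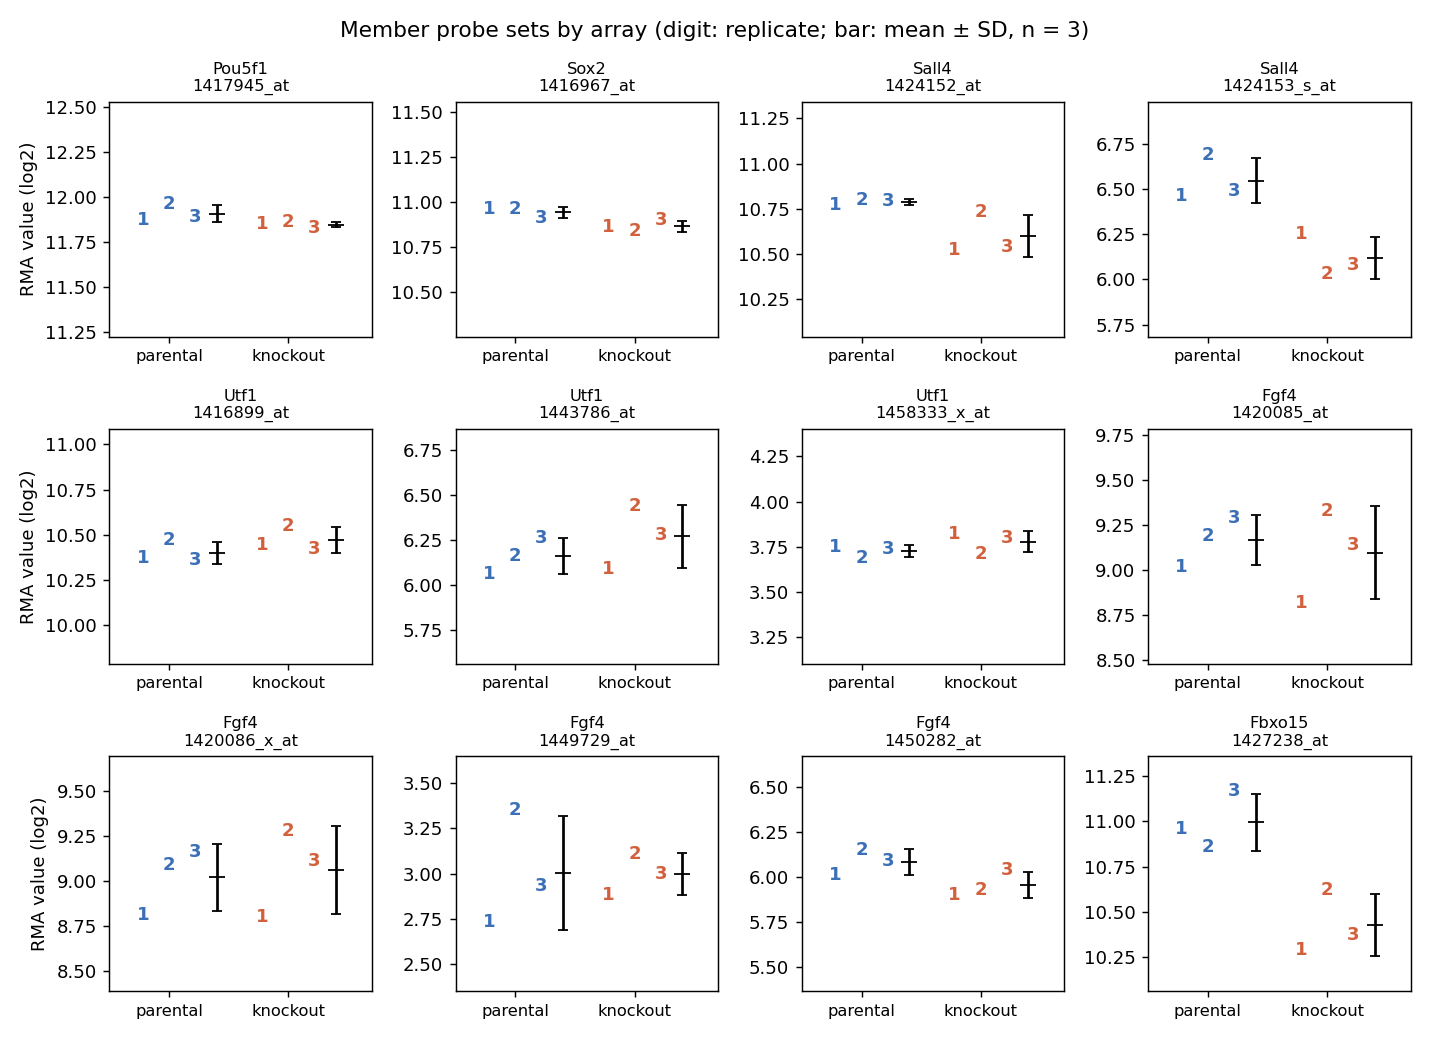
RMA values (log2) of the 12 probe sets on each array. Digits are replicate numbers in blue (parental) and orange (knockout), black bars give the mean ± SD of 3 arrays, and every panel has the same span on its vertical axis. The knockout arrays lie apart from and below the parental arrays for Pou5f1, Sox2, both Sall4 probe sets and Fbxo15, with the widest gap for Fbxo15.

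Pou5f1 (1417945_at, chromosome 17) read 11.87, 11.96 and 11.89 in parental samples and 11.85, 11.86 and 11.83 in knockout samples. All knockout arrays were below all parental arrays, by as little as 0.01 between the nearest of them. The change was -0.06 (SE 0.07, adjusted p = 0.852, limma), so knockout cells had 95.9% of the parental signal, with a 95% interval from 85.9% to 107.2%. Sox2 (1416967_at, chromosome 3) read 10.96, 10.96 and 10.91 in parental samples and 10.86, 10.84 and 10.90 in knockout samples. Its groups also did not overlap, again with a gap of 0.01. The Sox2 change of -0.08 (SE 0.07, adjusted p = 0.797, limma) left 94.8% of the signal, with an interval from 85.0% to 105.8%. For these 2 regulators a loss of more than about 15% of the signal thus lay outside the 95% interval, while a smaller one did not.

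Sall4 (chromosome 2) was lower on both of its probe sets without passing the test. On 1424152_at it read 10.77, 10.80 and 10.79 in parental samples and 10.52, 10.73 and 10.54 in knockout samples. The parental arrays lay within 0.03 of each other, whereas knockout replicate 2 stood nearer to them than to the other knockout arrays. The change was -0.19 (SE 0.08, adjusted p = 0.520, limma; interval -0.38 to -0.0028). The dimmer probe set 1424153_s_at read 6.46, 6.69 and 6.49 in parental and 6.25, 6.03 and 6.08 in knockout samples. Here knockout replicate 2 was the lowest of the 6 arrays, the reverse of its place on the other probe set. Its change was -0.43 (SE 0.10, adjusted p = 0.167, limma), which is 74.4% of the parental signal with an interval from 63.9% to 86.6%. A change of at least this size in either direction was seen for 1.47% of all probe sets. The s_at ending marks probes that can match more than 1 transcript, and the 2 estimates for Sall4 share a direction but not a size.

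Utf1 (chromosome 7) was at the parental level or slightly above it on its 3 probe sets. The brightest, 1416899_at, read 10.37, 10.47 and 10.36 in parental samples and 10.44, 10.55 and 10.42 in knockout samples, and the groups overlapped. The change was 0.07 (SE 0.08, adjusted p = 0.840, limma), with an interval from 93.0% to 118.5% of the parental signal. On 1443786_at it read 6.06, 6.16 and 6.26 in parental and 6.09, 6.44 and 6.28 in knockout samples, a change of 0.11 (SE 0.10, adjusted p = 0.811, limma). The third, 1458333_x_at, had group means of 3.73 and 3.78, neither above the background level, and so says little about Utf1. All 3 point estimates of Utf1, that of the probe set below background included, were above 0, opposite in sign to those of Sall4 and Fbxo15. Each of the 3 intervals of Utf1 included 0.

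On its brighter probe sets, 1420085_at and 1420086_x_at, Fgf4 (chromosome 7) varied more between replicate arrays than between the lines. Its probe set 1420085_at read 9.02, 9.19 and 9.29 in parental samples and 8.82, 9.33 and 9.14 in knockout samples. Knockout samples thus held both the lowest and the highest value. The change was -0.07 (SE 0.13, adjusted p = 0.919, limma), with an interval from 76.9% to 118.0% of the parental signal. The probe set 1420086_x_at read 8.81, 9.09 and 9.16 in parental and 8.80, 9.28 and 9.11 in knockout samples, a change of 0.04 (SE 0.14, adjusted p = 0.957, limma). These probe sets were designed from the same sequence record and followed each other over the 6 arrays (Pearson's r = 0.929), so they do not give independent evidence. Another probe set from that record, 1449729_at, had a mean of 3.0 in each group, below background. The fourth, 1450282_at, was designed from the RefSeq transcript and read 6.01, 6.15 and 6.09 in parental and 5.90, 5.93 and 6.04 in knockout samples, a change of -0.13 (SE 0.08, adjusted p = 0.689, limma). The sign of the Fgf4 change therefore depended on the probe set, and no probe set of Fgf4 separated the groups.

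Fbxo15 (1427238_at, chromosome 18) showed the largest difference among the 12 probe sets. It read 10.96, 10.86 and 11.17 in parental samples and 10.29, 10.62 and 10.37 in knockout samples. The nearest arrays of the groups were 0.24 apart. The change was -0.57 (SE 0.12, adjusted p = 0.119, limma), which is 67.4% of the parental signal with an interval from 56.1% to 80.9%. A difference of this size or more, in either direction, was seen for 0.682% of all probe sets. With an intensity trend and a robust prior in limma, the adjusted p of Fbxo15 was 0.0292 and it was the 1 member probe set called, under a setting that called 0.693% of all probe sets. No array left out in turn gave a call for it, with changes from -0.67 to -0.48.

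**Figure D2:**
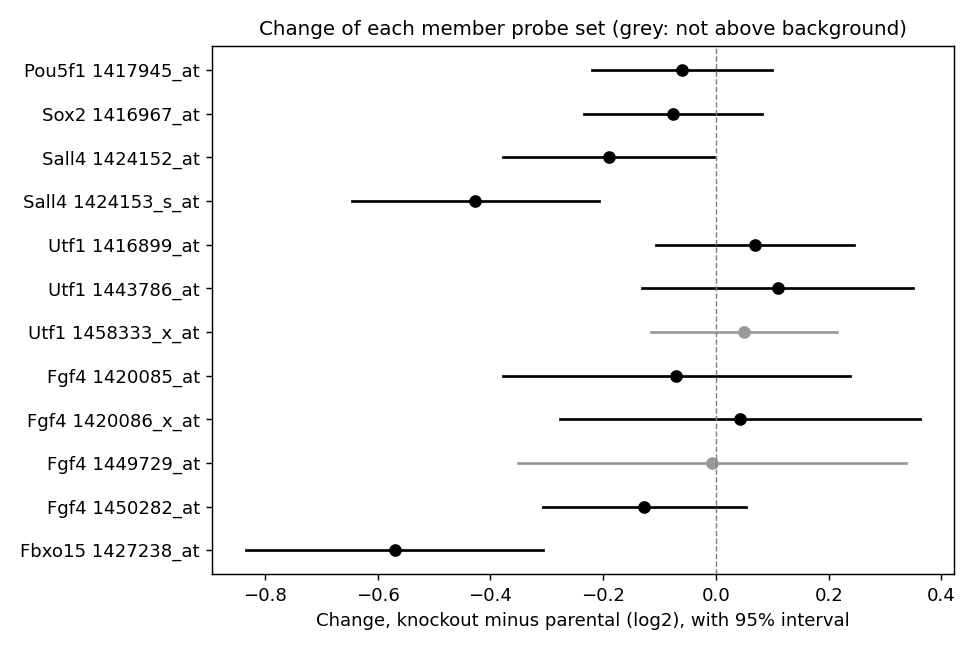
Change of each of the 12 probe sets, knockout minus parental on the log2 scale, with the 95% interval from the moderated fit (lines). Grey marks the 2 probe sets not above background. The intervals of Fbxo15 and of both Sall4 probe sets lie below 0, and the other 9 intervals include 0 and stay between -0.38 and 0.36.

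In all, 5 of the 12 probe sets had every knockout array below every parental array and 0 had the reverse, where 7.52% of all probe sets did the former and 6.71% the latter. The 5 stand for 4 genes, since Sall4 contributes 2, and for Pou5f1 and Sox2 the separation amounts to the last recorded decimal.

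Whether the targets moved differently from their regulators was tested within arrays, by subtracting the mean of Pou5f1 and Sox2 from each target. For Fbxo15 this log2 difference was -0.46, -0.60 and -0.23 in parental samples and -1.065, -0.73 and -0.995 in knockout samples. Those groups did not overlap, and their means differed by -0.50 (exact two-sided permutation p = 0.1, the smallest that 3 arrays against 3 can give). For Utf1 the same difference was higher in all 3 knockout samples, by 0.14 (exact permutation p = 0.1). This log2 difference of Utf1 from the regulators went from -1.03 ± 0.03 to -0.89 ± 0.08 (SD, n = 3). Both sides contribute to it, since Utf1 itself changed by 0.07 and Pou5f1 and Sox2 by -0.06 and -0.08. For Sall4 the means differed by -0.12 (exact permutation p = 0.3), or by -0.24 with its 2 probe sets averaged (exact permutation p = 0.1). Without knockout replicate 2 the Sall4 value was -0.19, and without knockout replicate 1 or 3 it was -0.08 or -0.09. For Fgf4 the means differed by -0.0017 (exact permutation p = 1.0). With 4 targets compared, no such p can pass 0.05 in this design, adjusted or not.

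The mean of the feeder markers moved with some of these values. The mean of the 15 feeder markers was 10.96, 11.04 and 10.90 in parental samples and 11.16, 10.90 and 11.12 in knockout samples. The difference was 0.09 (exact permutation p = 0.4), and 0 of the 15 markers were called by limma. Of the 15, 12 were higher in knockout cells, Acta2 and Tagln were lower, and Col1a1 did not differ. Lum had the largest change (0.25, adjusted p = 0.449, limma). Within each line, the array with a higher feeder mean had less Fbxo15. Single markers, inspected afterwards, did not share this order. In each line the array with most Fbxo15 had the highest Col1a1, Col1a2, Col3a1, Col6a1 and Postn. The same array had the lowest Twist2, Thy1, Tagln, Dcn, Loxl1 and S100a4, and the other markers did neither. Col3a1 read 12.49 on parental array 3 and 12.59 on knockout array 2, where Twist2 read 9.43 and 9.35. With the feeder mean as a covariate the change of Fbxo15 was -0.44 (adjusted p = 0.119, limma). That of Sall4 was -0.13 on 1424152_at and -0.50 on 1424153_s_at, and those of Pou5f1 and Sox2 were -0.07 and -0.09. Because the markers did not run together over the arrays, this covariate, here and below, does not adjust for a single feeder amount. The mean of the 9 ES cell markers was 10.48 ± 0.06 (SD, n = 3) for the parental line against 10.40 ± 0.05 (SD, n = 3) for the knockout line, with an exact permutation p of 0.1. Of these 9 markers, 6 were lower and 3 higher in knockout cells, and Nanog had the largest change (-0.49). Most of them, Nanog included, also belong to the wider target set examined below, so their mean is not independent of those targets. The part of feeder signal or of ES cell share in these differences was not tested.

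**Figure D3:**
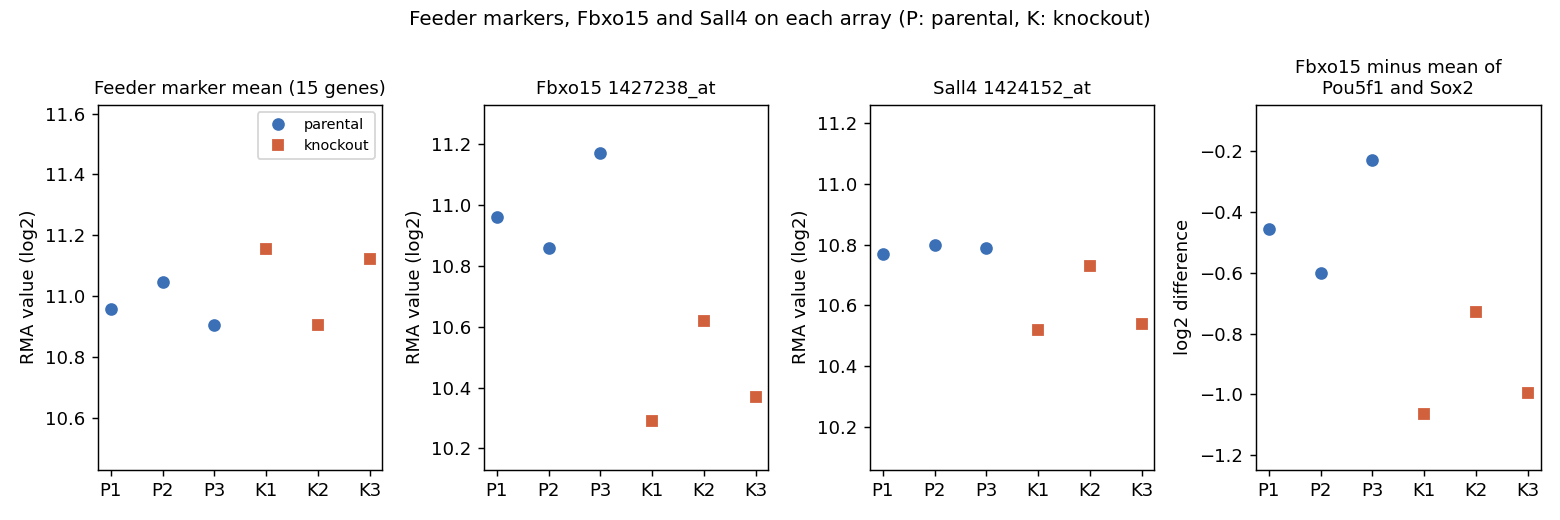
Values on each of the 3 parental (P1 to P3, blue circles) and 3 knockout arrays (K1 to K3, orange squares), on log2 axes of equal span. From left to right they are the mean of 15 feeder markers, Fbxo15, Sall4 (1424152_at) and Fbxo15 minus the mean of Pou5f1 and Sox2. Fbxo15 spans 10.86 to 11.17 on parental and 10.29 to 10.62 on knockout arrays, and the feeder mean 10.90 to 11.04 and 10.90 to 11.16.

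The wider set of genes known as targets of Oct4 and Sox2 was then examined with 1 probe set per gene. Of 37 listed genes 34 were measured, all above background, and 0 passed the test in either direction, where 0.605% of 18193 genes did. At an unadjusted p under 0.05, 9 of the 34 were lower in knockout cells and 0 higher, where 6.37% of all genes were lower and 4.66% higher (limma). The median change of the list was -0.152, against 0.0 over all genes. The 4 with the highest mean value on their own probe set did not share a sign. Dppa5a, an RNA-binding protein gene of pluripotent cells, differed by 0.08, the zinc finger gene Zfp42 (Rex1) by -0.11, and Tdgf1, which encodes the Nodal co-receptor Cripto, by 0.13 (adjusted p = 0.781, 0.715 and 0.694, limma). Nanog, the homeobox partner of Oct4 and Sox2 in the core circuit, read 10.97, 10.96 and 10.76 in parental and 10.47, 10.25 and 10.51 in knockout samples. Its groups did not overlap and the change was -0.49 (SE 0.10, adjusted p = 0.122, limma).

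Of the 9 genes lower at an unadjusted p, 8 are named here after their values were seen. Hesx1, a homeobox gene bound by Oct4 and Sox2, had the largest change of the list. It read 4.58, 5.01 and 4.86 in parental and 4.05, 4.18 and 4.2 in knockout samples, a change of -0.67 (SE 0.11, adjusted p = 0.0643, limma) at a level close to background. Without parental replicate 1 the change was -0.79 and passed (adjusted p = 0.0453, limma). The others were Dppa3 (-0.53), a maternal factor gene also known as Stella, the proto-oncogene Mycn (-0.40), the TGF-beta family gene Gdf3 (-0.37), the Krüppel-like factor gene Klf2 (-0.35), the 5-methylcytosine oxidase gene Tet1 (-0.34), the Polycomb cofactor gene Jarid2 (-0.26) and the repressor gene Rest (-0.19). Their adjusted p lay between 0.143 and 0.437 (limma). With the feeder mean as a covariate the median change of the 34 genes was -0.095, and 9 were lower and 0 higher at an unadjusted p under 0.05, where 6.99% and 5.11% of all genes were. The changes then were -0.58 for Nanog, -0.65 for Dppa3 and -0.68 for Hesx1, and -0.27 for Mycn, -0.25 for Klf2, -0.22 for Tet1 and -0.17 for Jarid2. With an intensity trend and a robust prior, Nanog (adjusted p = 0.0266) and Hesx1 (adjusted p = 0.0430) were called, beside Fbxo15. The lineage genes Cdx2, Eomes and Hand1, which Oct4 is known to hold down and which were also named after their values were seen, differed by 0.08, 0.22 and -0.09 (adjusted p = 0.824, 0.721 and 0.849, limma).

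Genes of the pathway that Fgf4 feeds into did not pass the test either. Of 30 listed genes 27 were measured, 26 of them above background, and 0 were called. At an unadjusted p under 0.05, 3 of the 27 were lower and 3 higher (limma), where 6.37% of all genes were lower and 4.66% higher. The median change was 0.097, and 0.002 with the feeder mean as a covariate. Among receptors, named after their values were seen, Fgfr1 differed by 0.01, Fgfr2 by -0.08, Fgfr3 by 0.11 and Fgfr4 by -0.14 (adjusted p = 0.984, 0.827, 0.841 and 0.756, limma). Of the 4 with the highest mean value, the kinase gene Map2k1 differed by 0.03 and the ERK-responsive genes Egr1 by 0.13, Fos by 0.11 and Etv5 by -0.13 (adjusted p = 0.964, 0.786, 0.716 and 0.710, limma). The 3 higher ones, named after their values were seen, were Etv4, an ETS factor gene that responds to FGF signals (0.28, adjusted p = 0.267), and the feedback inhibitor genes Spred1 (0.25) and Spry2 (0.23). The 3 lower ones, named in the same way, were the ligand genes Fgf15 (-0.51, adjusted p = 0.420) and Fgf1 (-0.24) and the adaptor gene Grb2 (-0.26). Relatives and partners of the 6 genes gave 0 calls among 19 measured, with 2 lower (Skp1 and Fgf15, which stands in both lists) and 0 higher at an unadjusted p under 0.05 (limma; 6.37% and 4.66% of all genes) and a median change of 0.0. Members with the highest mean value were Skp1, a subunit of the SCF ligase to which F-box proteins bind (-0.22, adjusted p = 0.378), the Sox gene Sox4 (-0.03, adjusted p = 0.964), the cullin gene Cul1 (0.05, adjusted p = 0.909) and the spalt gene Sall1 (0.05, adjusted p = 0.882).

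**Figure D4:**
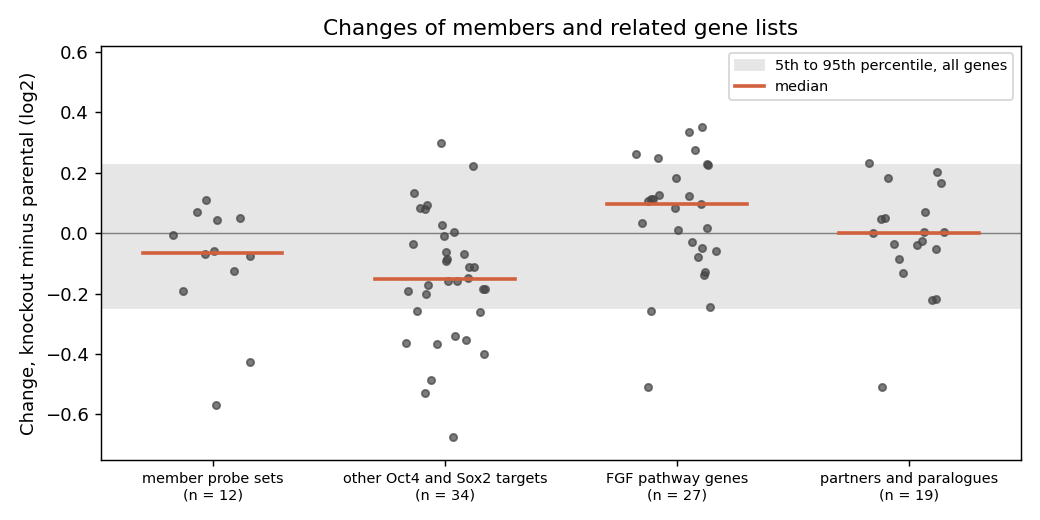
Changes, knockout minus parental on the log2 scale, of the 12 member probe sets, 34 other Oct4 and Sox2 targets, 27 FGF pathway genes and 19 partners and paralogues. Each point is a probe set or gene, red lines are medians (-0.065, -0.152, 0.097 and 0.0), and the grey band runs from the 5th to the 95th percentile of all genes (-0.247 to 0.227).

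Likeness of pattern was described by Pearson's r over the 6 arrays against 13377 other genes above background. Closest to Fbxo15 were the orphan nuclear receptor gene Nr6a1 (r = 0.994, change -0.23) and Nelfa, a subunit of the negative elongation factor (r = 0.994, change -0.40). Pou5f1 was followed most closely by Zfp593 (r = 0.989) and Msx2 (r = 0.989), and Sox2 by Saal1 and the clock gene Per1 (r = 0.990 for both). The nearest to Sall4 (1424152_at) were Cmss1 (r = 0.999) and the farnesyltransferase subunit gene Fntb (r = 0.997). For Utf1 they were the hypoxia factor gene Epas1 (r = 0.999) and Osbpl1a (r = 0.980), and for Fgf4 (1420085_at) Gabrb1 (r = 0.996) and Oas1c (r = 0.986). With 6 points such values are common: 431 genes had an r over 0.9 with Fbxo15, 332 with Sall4, 226 with Sox2, 102 with Pou5f1, 84 with Fgf4 and 58 with Utf1. The points share the 6 arrays and their division into 2 lines.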

How the data were processed

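Total RNA was labelled with the Affymetrix one-cycle kit, per the labels' protocols. The deposited table holds log2 expression values of 45101 probe sets on 6 arrays, which the authors normalized by RMA, per the submitters' processing notes. Neither its software version nor the chip definition is given in the sources used here. The log2 scale was read from the values (2.12 to 13.98, array medians 4.21 to 4.25). RMA gives the arrays a shared distribution, which would hide a shift of most transcripts in 1 direction.

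After 64 control probe sets were left out, 45037 were fitted with limma 3.58.1 in R 4.3.3 (lmFit, eBayes, no covariate), and the procedure was tested on simulated data. Exact permutation tests used scipy 1.17.1. A gene in a list was represented by its probe set with the highest mean among those naming 1 gene. Members and lists were chosen with earlier results of these data known. Named were all member probe sets and, per list, genes that passed and the 4 with the highest mean. Other names from the target, FGF and partner lists are marked as chosen after their values were seen. Lineage markers given with their levels carry no such mark. For likeness, the 2 genes closest to each member were named. Symbols and promoter sequences are from RefSeq (GRCm38.p6). Alternatives covered normalization, the variance prior, filters, covariates and leaving out each array. No pair of arrays held identical values, and the number of arrays limits the precision.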

Additional observations from a re-analysis of the deposited data

How the results depend on the processing

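No member probe set was called by limma in 12 of 13 alternatives. The exception was the intensity trend with a robust prior, with 1 call (Fbxo15, -0.57, adjusted p = 0.0292). For the whole table the 181 calls became 312 under that setting, 88 with the replicate block and 70 to 112 with 1 array left out, all 6 of which gave fewer calls. Of the wider target list 2 genes were called with the trend (Nanog and Hesx1), and 0 to 1 with 1 array left out, the 1 being Hesx1 without parental replicate 1. The FGF and partner lists kept 0 calls in all 13 alternatives. Changes of Pou5f1 (-0.09 to -0.03), Sox2 (-0.09 to -0.06), Sall4 (-0.26 to -0.13 on 1424152_at, -0.50 to -0.36 on 1424153_s_at), Utf1 and Fbxo15 (-0.67 to -0.44) kept their sign in every alternative run, as did 1 probe set of Fgf4 (1450282_at). The size of the Utf1 change moved more: 1416899_at gave 0.03 to 0.105 and 1443786_at 0.025 to 0.2, both lowest without knockout replicate 2. The Sall4 difference from the regulators was -0.24 to -0.08. The other Fgf4 probe sets changed sign. 1420085_at gave 0.055 with the feeder covariate and -0.19 to 0.068 with 1 array left out, 1420086_x_at -0.065 to 0.175 and 1449729_at -0.14 to 0.17. Relative to the regulators, Fgf4 gave 0.011 after repeated quantile normalization, 0.028 with the mean of all its probe sets, 0.0067 against Sox2 alone and -0.12 to 0.14 with 1 array left out. The cause was not tested. Replicate numbers did not pair the arrays (correlations of same-number deviations 0.112, -0.364 and -0.287). The highest correlations joined different numbers, parental 3 with knockout 2 (0.379) and parental 2 with knockout 3 (0.371), and a block of that kind was not fitted. The replicate block by number called 0 of 12 member probe sets, with Fbxo15 at an adjusted p of 0.350 (limma). Probe sets ending in x_at or s_at have no value in the fit without them, and those not above background none in the fit filtered on background. Signal close to background limits Utf1 1458333_x_at and Fgf4 1449729_at.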
